A study of Mus musculus with 80 samples.

Results

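The genes described here encode 10 heat shock proteins of mouse liver: the mitochondrial chaperones Hspd1, Hspe1 and Hspa9, and the cytosolic chaperones Hspa8, Hspa1a, Hspa1b, Hsp90aa1, Hsp90ab1, Dnajb1 and Hsph1. They were chosen by symbol. All 10 have a row in both deposited RSEM gene tables, which hold 18877 genes for the study of di(2-ethylhexyl)phthalate (DEHP), a plasticizer that activates the nuclear receptor PPARα in rodent liver, and 17672 genes for the study of dichloroacetic acid (DCA), which forms when water is disinfected and inhibits pyruvate dehydrogenase kinase. The series asks how dose responses read from archived formalin-fixed paraffin-embedded (FFPE) tissue compare with those from frozen tissue of the same mice. Male B6C3F1 mice, labelled 4 weeks old without saying whether at the start or at collection, received DEHP in feed for 7 days at 0, 1500, 3000 or 6000 ppm (4 mice per dose, livers collected in 2013) or DCA in drinking water at 0, 1, 2 or 3.5 g/L (6 mice per dose, collected in 1994; the labels do not give how long). Each liver gave a frozen and an FFPE library, 80 libraries in all. Frozen pieces came from mixed lobes and FFPE sections from named lobes, so lobe and preparation cannot be told apart.

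Heat shock proteins bind unfolded proteins and help them to fold, assemble or be degraded. In mitochondria, Hspa9 (mitochondrial HSP70) pulls imported chains through the inner membrane, and Hspd1 (HSP60) with its lid Hspe1 (HSP10) folds them in a closed chamber. In the cytosol, HSP70 works with HSP40 partners such as Dnajb1 and exchange factors such as Hsph1 and passes clients to HSP90. The inducible members are switched on by heat shock factor 1, which binds arrays of the unit GAA and its reverse complement TTC in their promoters. Hspa8 and Hsp90ab1 are the constitutive forms of HSP70 and HSP90.

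The upstream sequences are shown because members with a common promoter, or with near-identical promoters, are compared below. RefSeq promoter windows on GRCm38.p6 were read for 6 of the 10 members, in 9 windows. None was at hand for Hspa8, Hsp90aa1 or Hsp90ab1. Hspa9 was left out of the reading, so the counts below do not cover it. In the 250 bases before each start, 6 of the 9 windows had at least 1 match to GAANNTTC or TTCNNGAA, where N is any base. They came from 5 of the 6 members. Not all are separate sites, since Hspd1 and Hspe1 share theirs and the windows of Hspa1a and Hspa1b are near-identical. Both motifs read the same on either strand, and a match to one can overlap a match to the other. Of all 32851 windows, 6.69% held GAANNTTC, 7.17% held TTCNNGAA and 12.8% held either. Hspd1 and Hspe1 lie head to head on chromosome 1 and share 1 promoter. Their annotated genes overlap by 112 bases (Hspd1 at chr1:55077835-55088243 on the minus strand, Hspe1 at chr1:55088132-55091307 on the plus strand, GENCODE, GRCm38). The shared stretch at chr1:55088053-55088082, on the Hspe1 strand, lies in an annotated exon of an Hspd1 transcript and held 4 units in a row; 0.466% of all windows held 3 in a row. Hsph1 (chr5:149614287-149636376, minus strand) had 1 pair, shown within chr5:149636351-149636380 on its own strand, mostly inside the annotated first exon. Capitals mark the GAA and TTC units of the matches.
Hspe1 and Hspd1: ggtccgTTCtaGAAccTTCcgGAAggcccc
Hsph1: gggtagaatctTTCtcGAAggctcgagaag

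Hspa1a (chr17:34969190-34972156) and Hspa1b (chr17:34956436-34959238) are single-exon genes on the minus strand, 9951 bases apart. Their coding sequences of 1923 and 1926 bases differed at 8 of the aligned bases besides 1 gap of 3 bases, and were identical at 1915. The 250 bases before their starts differed at 3 positions (98.8% identical), and each held 1 GAANNTTC. Reads from the near-identical parts can be assigned to either gene, so how the counts divide between Hspa1a and Hspa1b is uncertain, and their sum is given beside the main results of the pair.
Hspa1a, chr17:34972157-34972406: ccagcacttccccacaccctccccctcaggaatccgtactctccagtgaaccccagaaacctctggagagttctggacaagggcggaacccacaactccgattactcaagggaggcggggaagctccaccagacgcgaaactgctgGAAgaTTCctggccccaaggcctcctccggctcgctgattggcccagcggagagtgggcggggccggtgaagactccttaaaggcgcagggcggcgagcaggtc
Hspa1b, chr17:34959239-34959488: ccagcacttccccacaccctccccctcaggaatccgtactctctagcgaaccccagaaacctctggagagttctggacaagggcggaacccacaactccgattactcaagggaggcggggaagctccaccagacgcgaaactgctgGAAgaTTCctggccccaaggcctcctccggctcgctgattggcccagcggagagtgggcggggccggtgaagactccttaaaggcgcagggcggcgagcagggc
The 2 windows of Dnajb1 held neither motif, which says only that these letters are not in those windows.

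Library totals ranged from 16583000 to 29550600 expected counts in DEHP frozen tissue, from 11673000 to 18866100 in DEHP FFPE tissue and from 3067670 to 16890000 in DCA frozen tissue, where animals 73, 74 and 75 (2 g/L) were the shallowest. DCA FFPE libraries held 109292 to 8434610 counts, with a median of 56.5% on the ribosomal RNA row Rn45s. All 10 hepatocyte markers were detected in every set. The summed hepatocyte markers ran from 108539 to 121258 CPM (counts scaled to a common library size) in DEHP frozen controls and from 78466 to 95370 at 6000 ppm, and from 134182 to 167004 in DCA frozen controls and 91563 to 115833 at 3.5 g/L. Their part in the results below was not tested, and in bulk tissue fewer cells of a type and less RNA per cell cannot be told apart.

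Levels between genes were compared as FPKM, which divides by transcript length. In frozen control liver the constitutive Hspa8 stood highest, with a median of 495 FPKM (275 to 963, n = 4) in the DEHP study and 841 (599 to 1026, n = 6) in the DCA study. Hsp90ab1 followed at 215 (166 to 262) and 361 (309 to 406). Hspd1 had medians of 173 and 166, Hspa9 of 146 and 138, Hsp90aa1 of 132 and 153, and Hspe1 of 101 and 88.2. In the DEHP controls the ranges of these 4 genes overlapped from each to the next lower, and so did Hsp90ab1 and Hspd1. In the DCA controls Hsp90ab1 stood clear of Hspd1, which overlapped Hsp90aa1, and Hspa9 (from 118.25) and Hspe1 (up to 118.05) barely parted. The exchange factor Hsph1 lay lower, at 24.7 and 43.4. The lowest levels were those of Hspa1b, Dnajb1 and Hspa1a. Hspa1b stood at 10.4 (0.840 to 19.2) and 21.6 (6.50 to 26.4), Dnajb1 at 9.93 and 12.6, and Hspa1a at 0.715 (0.0300 to 4.84) and 1.495 (0.0400 to 4.93). Hspa8 stood clear of Hsp90ab1, and Hspe1 of Hsph1, in both studies, while Hspa1b and Dnajb1 overlapped in both.

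**Figure D1:**
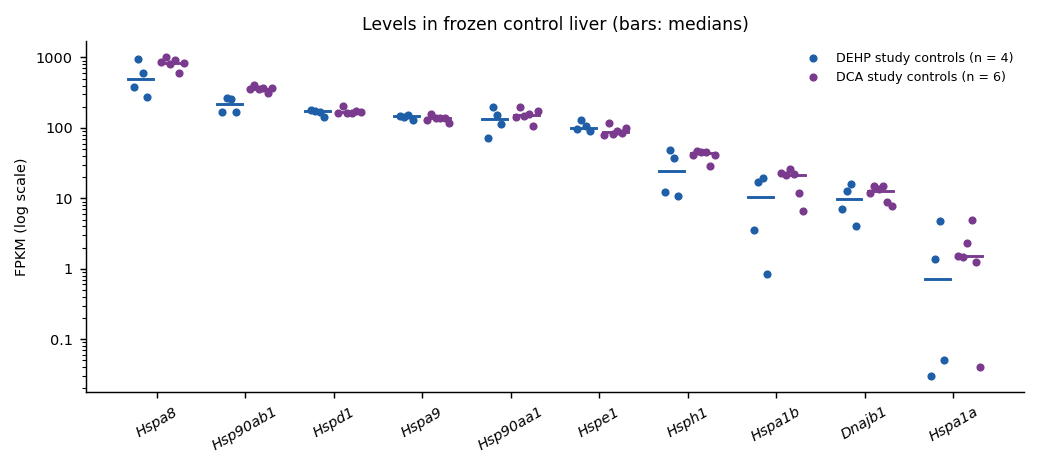
FPKM (log axis) of the 10 genes in frozen control liver; each point is 1 mouse, blue for the DEHP study and purple for the DCA study, and bars are medians. Hspa8 is highest, at a median of 495 and 841 FPKM, and Hspa1a lowest, at 0.715 and 1.495 FPKM.

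In frozen liver of DEHP-fed mice Hspd1 rose at every dose, and Hspe1 and Hspa9 rose at the upper doses. Values in this paragraph are CPM scaled by TMM within one preparation. Hspd1, the chamber-forming HSP60, measured 346, 387, 402 and 418 in the 4 controls, 547, 578, 588 and 598 at 1500 ppm, 608, 634, 761 and 993 at 3000 ppm, and 559, 701.4, 789.8 and 799 at 6000 ppm. Every treated mouse lay above every control. The log2 fold changes were 0.57 ± 0.15 (SE; edgeR adjusted p = 0.0319), 0.95 ± 0.15 (adjusted p = 0.000628) and 0.88 ± 0.15 (adjusted p = 0.00117). The call at 1500 ppm was lost without 63A, 75A, 3A, 40A or 60A (adjusted p up to 0.0847). Hspe1, its lid, measured 69.6, 70.0, 76.0 and 98.4 in controls, 97.2, 112, 138 and 140.1 at 1500 ppm, 124, 134, 150.4 and 243 at 3000 ppm, and 108, 126, 166 and 189 at 6000 ppm. The upper 2 doses did not overlap the controls, and 3 of 4 mice at 1500 ppm lay above them. Hspe1 rose by 1.05 ± 0.22 (adjusted p = 0.0040) and 0.91 ± 0.22 (adjusted p = 0.0111) at 3000 and 6000 ppm, while 0.63 ± 0.21 at 1500 ppm did not pass (adjusted p = 0.0921), though it did without 67C (0.65 ± 0.17, adjusted p = 0.0328). Hspa9, the import motor, measured 408 to 454 in controls and 531, 598, 606 and 606 at 3000 ppm, without overlap, and rose by 0.42 ± 0.12 (adjusted p = 0.0229; 0.0509 without 75A). At 6000 ppm it measured 465, 547, 586 and 658, and its rise of 0.37 ± 0.12 passed narrowly (adjusted p = 0.0489); this call was lost in 8 of 16 fits that left out 1 library, 45C, 63A, 75A, 60A, 71A, 44A, 64C or 8C.

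Apart from Hsp90ab1, the cytosolic genes varied more among mice than the mitochondrial genes. Hsp90aa1, the inducible HSP90, measured 199.7, 339, 423 and 580.3 in controls, 629, 633, 983 and 1544 at 3000 ppm, and 496, 689, 764 and 773 at 6000 ppm. All 4 mice at 3000 ppm lay above the controls, and the rise of 1.30 ± 0.32 passed (adjusted p = 0.0116); without mouse 67C it was 0.96 ± 0.29 (adjusted p = 0.0488). The value of 0.82 ± 0.31 at 6000 ppm did not pass (adjusted p = 0.104), but passed without control 45C (1.11 ± 0.32, adjusted p = 0.0402) and by DESeq2 (adjusted p = 0.0424). Hsp90ab1 measured 416 to 669.9 in controls and 672 to 858 at 3000 ppm, a difference of 0.52 ± 0.17 (adjusted p = 0.0506). It passed without 45C, 63A, 72B or 29B (adjusted p = 0.0265 to 0.0486), by DESeq2 (adjusted p = 0.0161), with DESeq2's size factors (adjusted p = 0.0441) and in the second count table (adjusted p = 0.0449). Dnajb1, the HSP40 partner of HSP70, measured 9.51, 15.1, 29.7 and 35.6 in controls and 15.9, 33.3, 40.0 and 261 at 3000 ppm. The value of 261 was mouse 67C; the difference of 1.96 ± 0.69 (adjusted p = 0.0656) was 0.39 ± 0.47 without it, and passed without 35A (adjusted p = 0.0485) or 71A (adjusted p = 0.0300). Hspa8 measured 608, 793, 1245 and 2063 in controls and 1043, 1611, 2225 and 2429 at 3000 ppm, and Hsph1 40.0, 42.7, 129 and 173 against 70.0, 105, 162 and 248. Both groups overlapped, with differences of 0.63 ± 0.34 and 0.60 ± 0.45 that did not pass. Without control 45C, the highest of its group, Hspa8 differed by 1.05 at 3000 ppm (adjusted p = 0.0365).

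Hspa1b, the inducible HSP70, had no dose response in DEHP frozen liver that exceeded the spread among mice. It measured 2.49, 9.75, 49.6 and 52.9 in controls, 5.69, 28.8, 35.9 and 39.1 at 1500 ppm, 5.02, 55.7, 58.3 and 179 at 3000 ppm, and 6.67, 9.45, 33.1 and 74.1 at 6000 ppm. Each dose held at least 1 mouse under 10 and at least 2 above it. The largest fitted difference was 1.37 ± 0.94 at 3000 ppm (adjusted p = 0.354), and the sum of Hspa1a and Hspa1b gave 1.23 ± 0.96 (adjusted p = 0.419). Hspa1a ranged from 0.0985 to 13.3 among the controls alone. Within-dose SDs on the log2 scale were 2.26 for Hspa1a, 1.82 for Hspa1b and 1.09 for Dnajb1. This put each at percentile 98.6 or higher among the 13802 genes tested. The SDs were 0.21 for Hspd1, 0.14 for Hspa9, 0.33 for Hspe1 and 0.25 for Hsp90ab1, against a median of 0.26 over all genes.

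In all, 1 member rose at 1500 ppm (Hspd1), where 4.34% of all genes tested were called higher, 4 rose at 3000 ppm (Hspd1, Hspe1, Hspa9 and Hsp90aa1; 8.17% of all genes) and 3 at 6000 ppm (the 3 mitochondrial genes; 7.05%). None fell; 4.72% of all genes were called lower at 6000 ppm. The median log2 fold change of the 10 members was 0.20, 0.79 and 0.31, against -0.03 over all genes at each dose. The trend with dose, scaled to the step from 0 to 6000 ppm, passed for Hspd1 (0.81 ± 0.21, adjusted p = 0.0478), where 1.42% of all genes were called higher; that call was lost in 11 of 16 fits without 1 library, all but those without 3A, 60A, 72B, 67C or 29B. The deposited column names begin with codes whose meaning the sources used here do not give; libraries that share a code are called a run below. In the run H36399, which held 2 controls and mouse 35A of 3000 ppm, Hspd1 was 1.03 higher in the treated mouse on the log2 scale, and in the run H36451, with 2 controls, 72B of 1500 ppm and 8C of 6000 ppm, it was 0.71 higher in mean and above both controls in both. Hsp90aa1 was 1.92 higher in the 1 treated mouse of the first run. Its controls there, 32A (199.7 CPM) and 75A (339), were lower than 63A (423) and 45C (580.3) of the second run. The other cytosolic genes were also lower in both controls of the first run. In the second run the treated mice differed from the controls by -0.02 in mean for Hsp90aa1. That run held no mouse of 3000 ppm, the dose at which this gene was called. With run as a term, 0, 2 and 2 members were called at 1500, 3000 and 6000 ppm: Hspd1 and Hspe1 at the upper doses. The lost calls against 0 ppm kept fold changes at least as large, with larger SEs. They were 0.71 ± 0.20 for Hspd1 at 1500 ppm (adjusted p = 0.0801) and 1.30 ± 0.40 for Hsp90aa1 at 3000 ppm (adjusted p = 0.0987). For Hspa9 they were 0.50 ± 0.16 and 0.46 ± 0.16 at 3000 and 6000 ppm (adjusted p = 0.110 and 0.123). The trend of Hspd1 was also lost with run as a term, and became smaller (0.65 ± 0.23, adjusted p = 0.365). Other runs held no control.

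FFPE tissue of the same mice gave the same direction for the mitochondrial genes. Hspd1 measured 237, 239, 266 and 273 CPM in controls, 366, 382, 393 and 432 at 1500 ppm, 484, 509.6, 555 and 601 at 3000 ppm, and 387, 546, 567 and 609.8 at 6000 ppm. No treated mouse overlapped the controls. Hspd1 rose by 0.63 ± 0.14 (edgeR adjusted p = 0.0123), 1.08 ± 0.14 (adjusted p = 0.000101) and 1.06 ± 0.14 (adjusted p = 9.18e-05), and Hspe1 by 0.62 ± 0.15 (adjusted p = 0.0254), 1.15 ± 0.15 (adjusted p = 0.000163) and 1.08 ± 0.15 (adjusted p = 0.000212). Hspa9 rose by 0.53 ± 0.13 and 0.52 ± 0.13 at 3000 and 6000 ppm (adjusted p = 0.0130 and 0.0115). Hsp90aa1 measured 118, 192, 213 and 312 in controls, 344, 412, 624 and 635 at 3000 ppm, and 268, 386, 452 and 484 at 6000 ppm, and rose by 1.27 ± 0.27 and 0.93 ± 0.27 (adjusted p = 0.00658 and 0.0331). Hsp90ab1 measured 338, 369, 464 and 510.4 in controls and 515, 592, 681 and 862 at 3000 ppm, and rose by 0.66 ± 0.18 at 3000 ppm and 0.64 ± 0.18 at 6000 ppm (adjusted p = 0.0248 and 0.0236). Hspa8, Hspa1a, Hspa1b, Dnajb1 and Hsph1 did not pass at any dose, but Hspa8 passed at 3000 ppm without 45C (1.13, adjusted p = 0.0136) and Dnajb1 without 71A (2.42, adjusted p = 0.0461). The counts were 2, 5 and 5 of 10 higher, against 4.55%, 6.15% and 7.94% of all genes, and 2 by trend (Hspd1 and Hspe1) against 2.15%. Leaving out 32A, 75A or 64C brought the count at 6000 ppm from 5 to 3, with Hsp90aa1 and Hsp90ab1 lost; Hsp90aa1 was also lost there without 63A, 44A or 8C. Hsp90ab1 was lost at 3000 ppm without 32A, 75A, 67C or 71A, and Hspe1 at 1500 ppm without 75A, 3A, 40A or 60A. Both trend calls were lost without 32A, 63A or 44A, and 4 genes passed by trend without 29B. Within each of the 3 runs that held a control, all 5, 3 and 3 treated libraries were above the controls for Hspd1, by 0.75, 0.88 and 1.08 in mean. With run as a term, 0, 5 and 4 members were called at the rising doses.

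**Figure D2:**
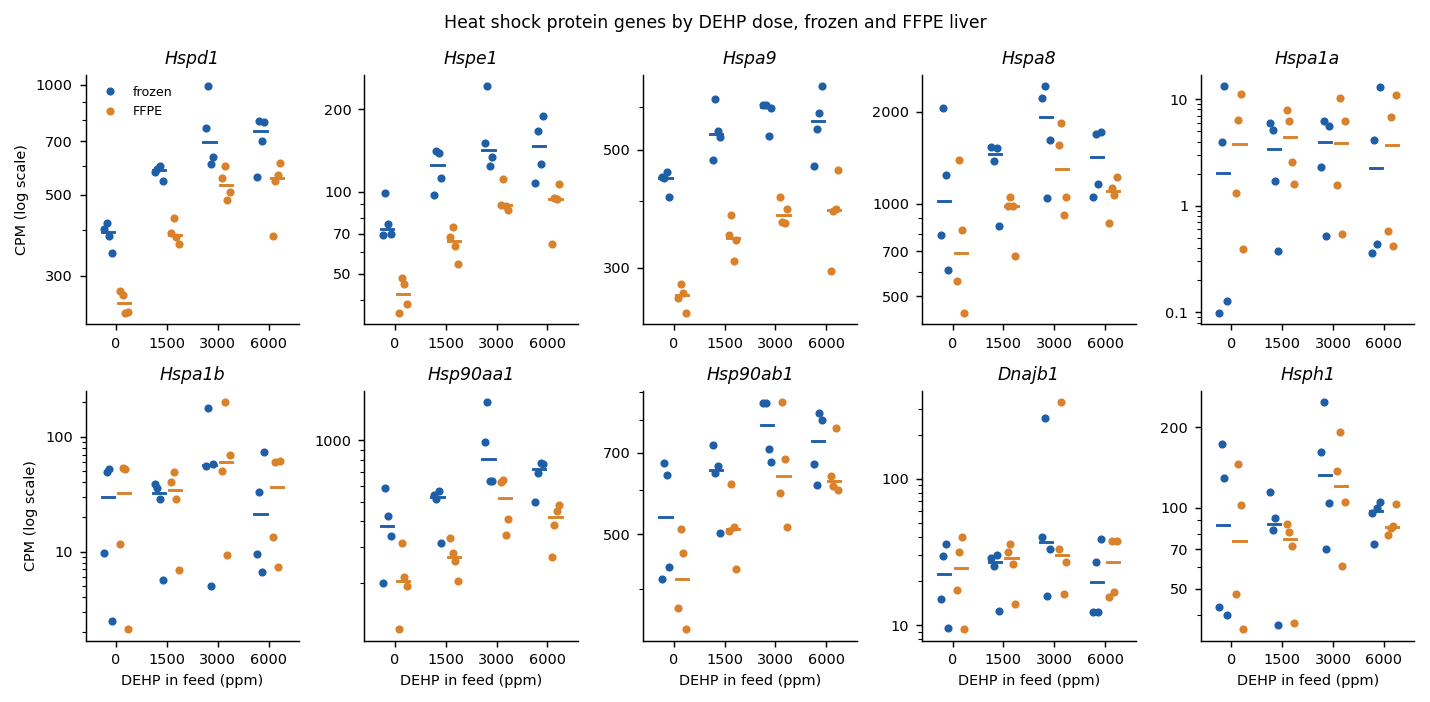
TMM-scaled CPM (log axes) of each gene by DEHP dose; each point is 1 library, blue frozen and orange FFPE, scaled within its preparation, and bars are medians. Hspd1 is above all controls in every treated mouse in both preparations, while Hspa1b runs from 2.49 to 52.9 among the frozen controls alone.

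In the DEHP study, values of the variable genes in frozen and FFPE libraries of the same mouse were correlated. After subtraction of dose means, the log2 CPM of Hspa1a correlated between preparations with r = 0.94 over 16 mice (Spearman's rho = 0.88). For Dnajb1 r was 0.98 (rho 0.96), for Hsph1 0.97 (rho 0.96), for Hspa8 0.96 (rho 0.92) and for Hsp90aa1 0.92 (rho 0.81). Hspa9, Hspd1, Hspe1 and Hsp90ab1 gave 0.81, 0.80, 0.75 and 0.70. For these 9 genes the permutation p values of r, with mice exchanged within doses, ran from 3e-05 to 0.015, and those of rho from 1e-05, the smallest that 100000 permutations can give, to 0.018. Adjusted over the 18 relations computed in both studies, the p values of r ran from 0.00027 to 0.0225. Without the 2 mice farthest from the median of the frozen values, r was 0.54 to 0.64 for Hspd1, Hspe1, Hspa9 and Hsp90ab1, and 0.87 to 0.96 for the other 5. The median r over 13445 genes was 0.35. Hspa1b fell into low and high mice, so its r is given within each, at a limit of 10 CPM chosen after its values were seen. Unlike the values above, this r is of log2 CPM without subtraction of dose means. It was 0.94 (rho 0.77) over the 6 mice at 2.49 to 9.75 CPM in frozen tissue. Over the 10 mice at 28.8 to 179 it was 0.91 (rho 0.75). The mice 32A and 75A, low among controls, were in another run than 45C and 63A in frozen tissue. Their FFPE libraries gave 11.7 and 2.11 for the first pair and 53.2 and 52.8 for the second, and there 75A (2.11) and 45C (53.2) were in the same run. Mouse 67C measured 333 for Dnajb1 in FFPE tissue against 261 in frozen tissue, and 201 against 179 for Hspa1b. In the DCA study, over 24 mice, Hsp90aa1 gave r = 0.66 (rho 0.64; permutation p = 0.00415, adjusted p = 0.0083; 0.58 without 2 mice) and Hspa8 0.56 (rho 0.50; permutation p = 0.0136, adjusted p = 0.0223; 0.47 without 2 mice), and the other 6 genes compared had adjusted p values above 0.05.

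**Figure D3:**
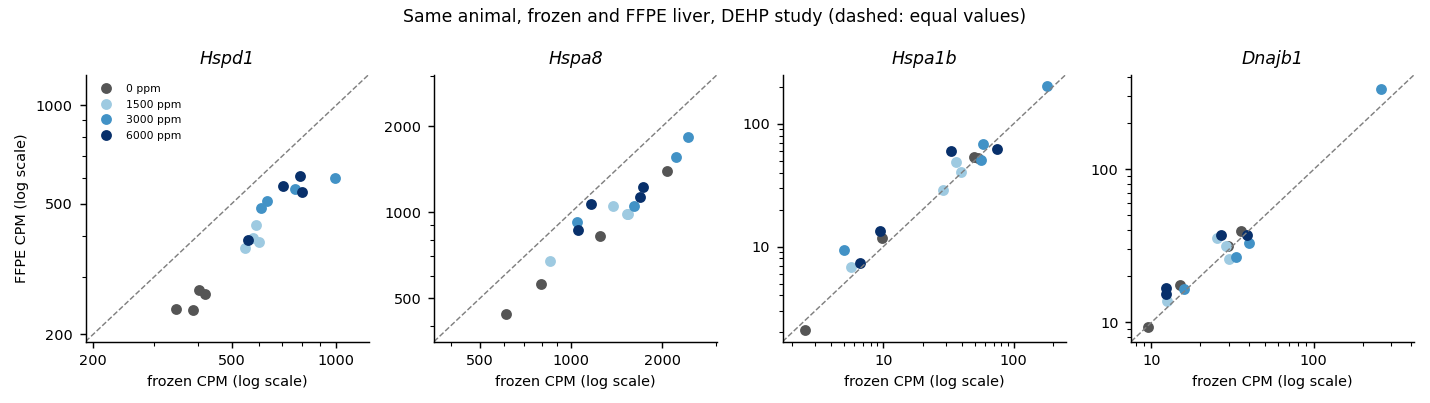
FFPE against frozen TMM-scaled CPM (log axes) for 4 genes in the DEHP study; each point is 1 mouse, coloured by dose, and the dashed line marks equal values. Mouse 67C is the highest point for Dnajb1, at 261 and 333 CPM, and Hspa1b separates 6 low mice from 10 high ones.

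Levels differed between FFPE and frozen libraries of the same controls. In the DEHP study, with the mouse as a block, FFPE libraries were lower for 6 members and higher for 1, where 24.7% and 24.9% of all genes were called lower and higher. Hsp90aa1 was lower by 0.75 on the log2 scale (-0.75 ± 0.06, adjusted p = 3.77e-08), Hspe1 by -0.78 ± 0.06 (adjusted p = 8.16e-08), Hspa9 by -0.61 ± 0.05, Hspd1 by -0.50 ± 0.05, Hspa8 by -0.42 ± 0.05 and Hsp90ab1 by -0.24 ± 0.06 (adjusted p = 0.00323). Dnajb1 was higher by 0.23 ± 0.07 (adjusted p = 0.0135), a call lost without 32A or without 63A. The sum of Hspa1a and Hspa1b was higher by 0.22 ± 0.08 (adjusted p = 0.0323), while neither passed alone. Without the block the count was 3 in place of 7. In DCA controls 7 members were lower, with 6.88% of all genes called lower, and the median gene was at -0.65 under TMM. Hsp90aa1 (-1.90 ± 0.17) and Hsph1 (-1.92 ± 0.30) were furthest down. The calls of Hspe1 (adjusted p = 0.0423, lost without 4, 5, 6 or 7) and Hspa9 (adjusted p = 0.0113, lost without 5 or 7) did not hold in every fit without 1 mouse. Both genes stayed lower in all of these fits, Hspe1 by -1.67 to -1.18 and Hspa9 by -0.98 to -0.68. The effect of 6000 ppm DEHP did not differ detectably between preparations for any member: the differences ran from -0.34 ± 0.50 (Hspa1a) to 0.25 ± 0.23 (Hspa1b), with 0.18 ± 0.11 for Hspd1. No member and 0% of 14065 genes passed, with 254 genes and 0 members at an unadjusted p under 0.05, and DESeq2 called 0 members.

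In frozen liver of DCA-treated mice the 3 mitochondrial genes rose, and Hspa1a, Hspa1b and Dnajb1 fell. Hspa1b measured 18.8 to 73.2 CPM in controls (median 60.8), 2.57 to 21.6 (median 5.19) at 1 g/L, 2.05 to 7.77 (median 4.40) at 2 g/L and 2.85 to 16.5 (median 7.75) at 3.5 g/L. All mice at 2 and 3.5 g/L lay below every control, as did 5 of 6 at 1 g/L. The log2 fold changes were -2.66 ± 0.44 (edgeR adjusted p = 0.000584), -3.30 ± 0.50 (adjusted p = 2.15e-05) and -2.58 ± 0.44 (adjusted p = 4.14e-05), and did not lose significance in any of the 24 fits without 1 library. Hspa1a measured 0.149 to 13.8 in controls (median 4.16) and 0.0647 to 3.01 in treated mice, the lowest control lying inside the treated range. It fell by 3.71, 2.57 and 3.47 on the log2 scale, with SEs of 0.65, 0.66 and 0.63 (adjusted p = 0.000990, 0.00476 and 9.51e-05), from few counts in the lowest libraries. The sum of both genes gave -2.73 ± 0.44, -3.21 ± 0.49 and -2.65 ± 0.44.

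Dnajb1 measured 17.8 to 32.9 in controls (median 27.3), with medians of 15.6, 16.1 and 17.5 at the rising doses. It fell by 0.72 ± 0.17 (adjusted p = 0.0110), 0.77 ± 0.18 (adjusted p = 0.00262) and 0.56 ± 0.17 (adjusted p = 0.0105), and the groups overlapped at each dose. With run in the model the call at 1 g/L did not pass (adjusted p = 0.0717). Hspa8 had medians of 1773, 1547, 1273 and 1892, Hsph1 of 156, 144, 113 and 141, Hsp90aa1 of 433, 529.7, 549 and 604 and Hsp90ab1 of 896, 953, 950.4 and 967 from 0 to 3.5 g/L. None of these 4 passed at any dose with all libraries in the fit. Hsp90aa1 was at 0.38 ± 0.16 at 2 g/L (edgeR adjusted p = 0.0800), and passed without 4 or 78 (adjusted p = 0.0424 and 0.0487). At 3.5 g/L it was at 0.30 ± 0.16 (adjusted p = 0.133), and passed without 98 (adjusted p = 0.0347), as did its trend (adjusted p = 0.0397). Hsph1 passed at 2 g/L without 7 (-0.42 ± 0.15, adjusted p = 0.0421).

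The 3 mitochondrial genes rose at the upper DCA doses. Hspd1 measured 366 to 473 in controls (median 387), 389 to 506 (median 450.4) at 1 g/L, 406 to 667 (median 576) at 2 g/L and 392 to 609.7 (median 553) at 3.5 g/L. It rose by 0.49 ± 0.11 at 2 g/L (adjusted p = 0.00217) and 0.40 ± 0.11 at 3.5 g/L (adjusted p = 0.00722), with 5 and 4 of 6 mice above all controls. Hspe1 rose by 0.70 ± 0.13 and 0.45 ± 0.13 (adjusted p = 0.000280 and 0.00691). Hspa9 measured 373 to 480.3 in controls (median 421) and 472 to 597 (median 545) at 3.5 g/L, and rose by 0.24 ± 0.07 and 0.37 ± 0.07 (adjusted p = 0.0102 and 0.000115). Without the shallow libraries 73, 74 and 75, the rises at 2 g/L were 0.29 ± 0.13 for Hspd1 (adjusted p = 0.1298) and 0.24 ± 0.09 for Hspa9 (adjusted p = 0.0546), neither of which passed.

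Without 53 and 54, from another run, Dnajb1 at 1 g/L was at -0.62 ± 0.20 (adjusted p = 0.0756). In counts, 0, 3 and 3 members were higher at 1, 2 and 3.5 g/L and 3, 3 and 3 lower. The shares of all genes called higher were 4.11%, 15.5% and 21.9%, and lower 7.01%, 13.7% and 21.1%, so at 3.5 g/L the members' shares stand near those of all genes. By trend 3 members rose and Hspa1a and Hspa1b fell, with 20.5% of all genes higher and 18.8% lower; the trend of Hspe1 was lost without 3, 5, 6, 7, 97 or 102. The count at 1 g/L rose from 3 to 5 without mouse 4 or 49. A tag in the column names, whose meaning the sources used here do not give, followed dose: all 6 controls shared one tag and all 6 mice of 3.5 g/L another, so for most mice dose cannot be told apart from what the tag marks. The single treated library with the controls' tag, mouse 49 at 1 g/L, measured 21.6 for Hspa1b, the highest treated value, and 0.133 for Hspa1a. It was also the lowest of its dose group for Hspd1 (389) and Hspa9 (400), where the control medians were 387 and 421. For Hspe1 the lowest was mouse 53. No mitochondrial gene was called at 1 g/L in the main fit, but 2 came near. Hspe1 was at 0.39 ± 0.13 (edgeR adjusted p = 0.0537). It passed by DESeq2 (adjusted p = 0.0303), in the second count table (adjusted p = 0.0461) and in 11 of 24 fits without 1 library. Hspa9 was at 0.17 ± 0.07 (edgeR adjusted p = 0.0975), and passed by DESeq2 (adjusted p = 0.0473) and without 4 or 49.

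**Figure D4:**
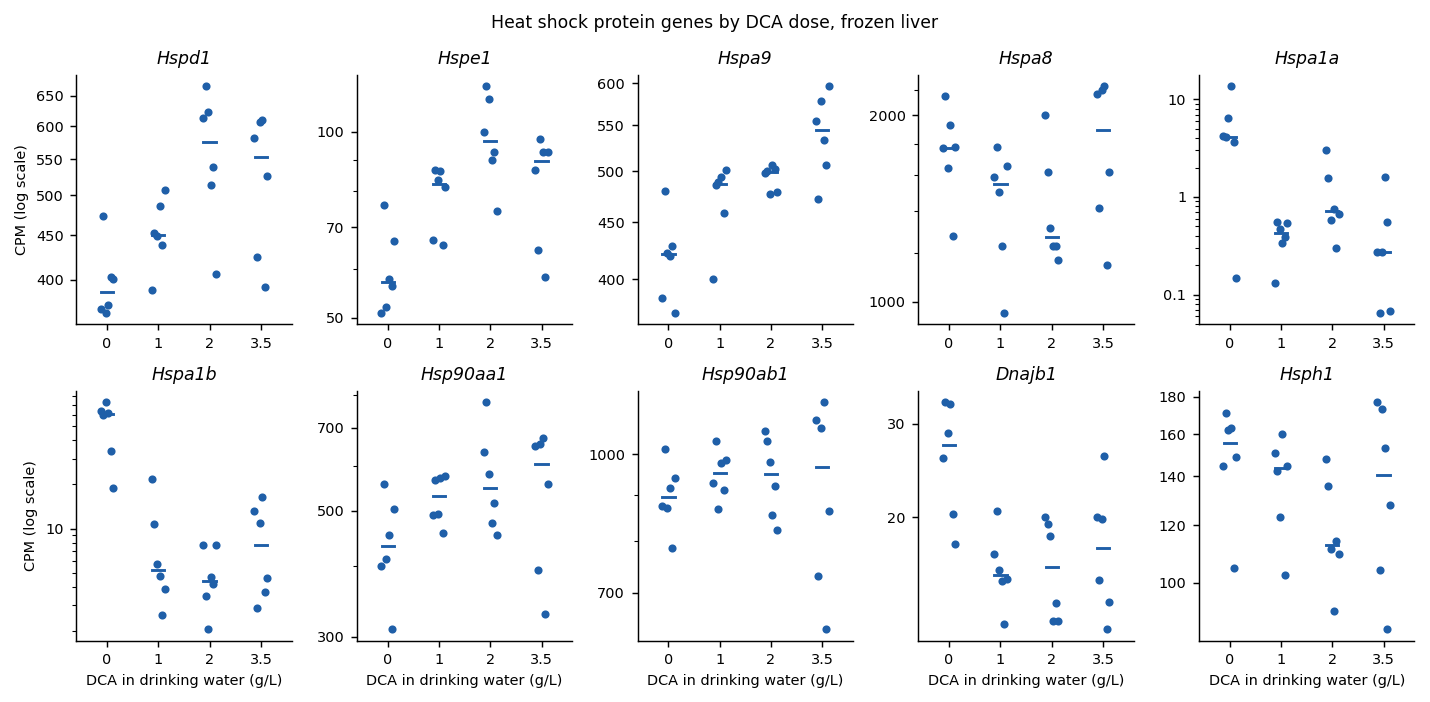
TMM-scaled CPM (log axes) of each gene by DCA dose in frozen liver; each point is 1 mouse and bars are medians. Hspa1b falls from a median of 60.8 CPM in controls to between 4.40 and 7.75 in treated groups, and Hspd1 rises from 387 to 576 and 553 at the upper doses.

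The difference between the top-dose effects of DEHP and DCA was tested in frozen tissue. No member passed, while 13.3% of all genes did; 4 members had an unadjusted p under 0.05. The differences were 2.68 ± 1.00 for Hspa1b (adjusted p = 0.0694), 3.48 ± 1.33 for Hspa1a (adjusted p = 0.0758) and 0.49 ± 0.19 for Hspd1 (adjusted p = 0.0789), and Hspa9 differed by 0.01 ± 0.12. Leaving out 1 library gave up to 3 calls: Hspa1b passed without 63A, 29B or 64C, Hspa1a without 63A, 29B, 8 or 97, and Hspd1 without 29B. The 2 studies differ in route, time, year and run as well as chemical, and these cannot be told apart.

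**Figure D5:**
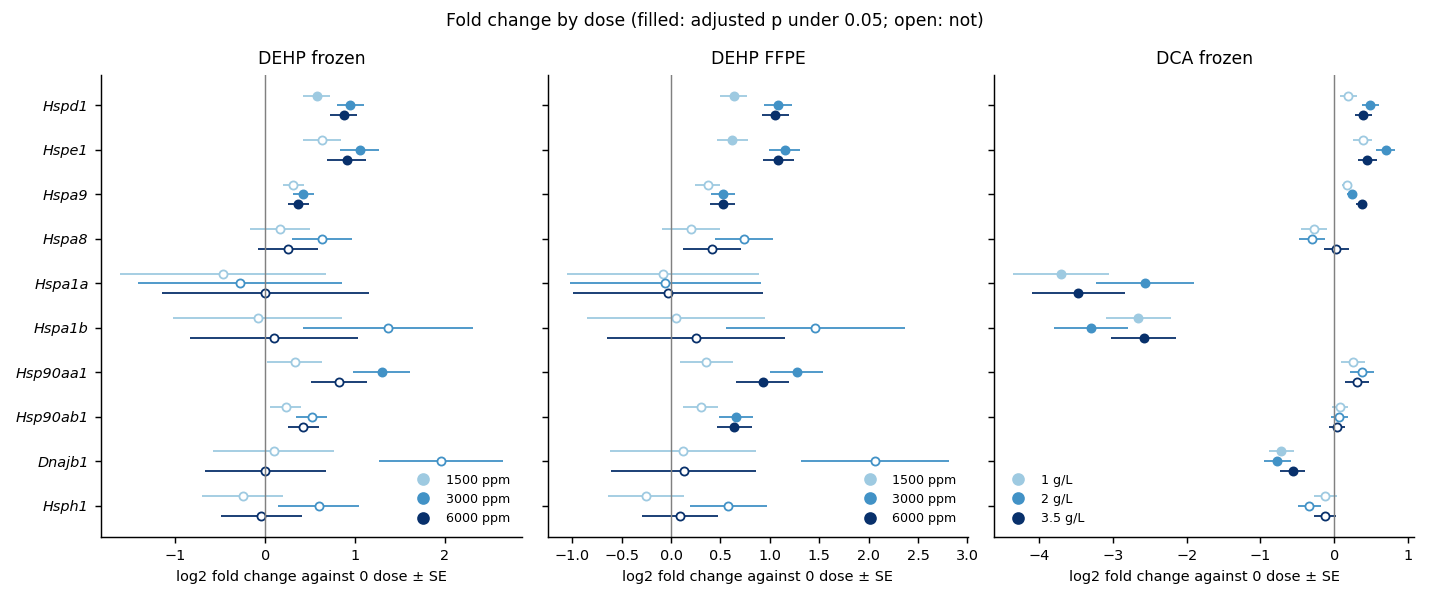
Log2 fold change against the 0 dose ± SE for each gene in 3 sets, by dose; filled points passed at an adjusted p of 0.05 and open ones did not. The mitochondrial genes lie right of 0 in all 3 panels, and Hspa1a, Hspa1b and Dnajb1 lie left of 0 under DCA.

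DCA FFPE tissue was too shallow for these genes. Only 8 members passed the filter, Hspa1a and Hspa1b being left out, and 0 were called by edgeR or by DESeq2 at any dose, with 0 at an unadjusted p under 0.05. The shares of all 4772 genes called were 0.126%, 0.335% and 0.293% at the rising doses and 0.356% by trend. Hspe1 had no count in 4 of 6 libraries at each treated dose, and the 6 libraries at 2 g/L held 6 counts of it in all. For Hspd1 the difference at 3.5 g/L was -0.36 ± 0.82. Controls were in another run than the 2 and 3.5 g/L libraries and far deeper, so dose cannot be told apart from run and depth, and no difference was detectable at this depth.

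Other genes of the chaperone system were read from lists, to be set beside all genes tested: 4.34%, 8.17% and 7.05% were higher and 4.72% lower (at 6000 ppm) under DEHP, and 21.9% were higher and 21.1% lower at 3.5 g/L DCA. Of 23 tested mitochondrial co-chaperones, import subunits and proteases, 5, 11 and 9 rose and 0 fell at the rising DEHP doses in frozen tissue, and 1, 11 and 12 rose and 3, 3 and 3 fell under DCA. Grpel1, the exchange factor of Hspa9, rose by 0.58 ± 0.10 at 6000 ppm (adjusted p = 0.00151), as did Spg7, an inner membrane protease subunit (0.57 ± 0.12, adjusted p = 0.00541). Grpel2, a relative of Grpel1, rose by 1.499 ± 0.11 at 3.5 g/L DCA (adjusted p = 1.09e-10). Of 34 cytosolic HSP70 and HSP90 co-chaperones, 2 rose and 3 fell at 6000 ppm DEHP and 11 rose and 5 fell at 3.5 g/L DCA, the counts under DEHP lying near the background. Among those that rose under DCA was Dnaja2, an HSP40 (0.59 ± 0.08, adjusted p = 2.18e-06). It also rose in frozen tissue at 3000 ppm DEHP (0.64 ± 0.13, edgeR adjusted p = 0.00447). Hspa4, an exchange factor, was another that rose under DCA (0.43 ± 0.07, adjusted p = 2.99e-05). The median of that list was 0.07 under DEHP and 0.02 under DCA, against -0.03 and -0.02 over all genes. Of 14 subunits of the TRiC chaperonin and prefoldin, 2 rose under DEHP and 5 under DCA at the top dose, and 0 fell; Cct2 was among them in both (0.33 ± 0.10 and 0.28 ± 0.07). Of 18 endoplasmic reticulum chaperones, 5 fell and 13 did not pass at 6000 ppm DEHP, 17 fell at 3.5 g/L DCA, and 0 rose under either; the list's medians were -0.75 and -0.87. Sdf2l1 fell by 1.63 ± 0.43 (adjusted p = 0.0211) under DEHP, and the disulfide isomerase Pdia6 by 1.13 ± 0.14 (adjusted p = 5.53e-07) under DCA. Hspb1, a small heat shock protein, rose by 0.97 ± 0.26 at 6000 ppm in frozen tissue (adjusted p = 0.0224) and by 1.75 ± 0.40 in FFPE tissue (adjusted p = 0.00926). At 3000 ppm in frozen tissue it rose by 1.18 ± 0.26 (edgeR adjusted p = 0.00645). The heat shock factor Hsf2 (0.46 ± 0.12, adjusted p = 0.0141) and the co-chaperone St13 (0.35 ± 0.08, adjusted p = 0.00982) were also called higher there.

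Clock genes follow time of day, and immediate early genes also respond to handling. At 3.5 g/L DCA, 7 of 13 clock genes rose and 4 fell, with Nr1d1 up by 3.39 ± 0.21 (adjusted p = 9.81e-12), and 3 of 9 immediate early genes rose and 1 fell. Of all genes, 43% were called in either direction there, a share near that of the immediate early genes. Under 6000 ppm DEHP 0 of 12 clock genes and 0 of 9 immediate early genes passed. Of all genes in frozen tissue, 11.8% were called in either direction there, so counts of 0 in such short lists lie near the background. The part of clock and immediate early genes in the fall of Hspa1a, Hspa1b and Dnajb1 was not tested.

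The genes nearest to 3 members across mice, by r of log2 CPM after subtraction of dose means, are given as a description. In DCA frozen liver (24 mice) Hspd1 lay nearest to Ran (0.91), Hspe1 (0.91) and Cct6a (0.89), Hspa8 to Dnaja1 (0.91), Chordc1 (0.89) and P4ha1 (0.87), and Hsp90aa1 to Stip1 (0.97), Hsp90ab1 (0.93) and Ahsa1 (0.91). In DEHP frozen liver (16 mice) Hspd1 lay nearest to Bach1 (0.92), Strn3 and Riok2 (both 0.91), Hspa8 to Tsr1, G3bp1 (both 0.95) and Ccnd1 (0.94), and Hsp90aa1 to Cacybp, Hspa4l (both 0.95) and Selk (0.94). The median r over all genes compared was between 0.04 and 0.09. These values share libraries, depth and scaling.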

How the data were processed

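Total RNA depleted of ribosomal RNA was sequenced from frozen and FFPE liver of the same mice, per the labels' protocols. Reads were processed with CASAVA, STAR 2.4 and RSEM on mm10, per the submitters' processing notes. The authors deposited RSEM expected counts and FPKM per gene, and a second set of count tables whose counting tool is not given in the sources used here. Expected counts were rounded and tested with edgeR 4.0.16 (R 4.3.3): filterByExpr with a minimum count of 10, TMM scaling, quasi-likelihood tests and Benjamini-Hochberg adjustment over all genes tested, at 0.05. Each preparation of each study was fitted by dose; SE is the log2 fold change divided by the root of F. FFPE against frozen and its interaction with dose had the mouse as a block, since same-numbered samples come from 1 animal; 13 of 16 DEHP mice and 13 of 24 DCA mice matched their own partner best within dose. Log2 CPM used a prior count of 2. CPM was scaled within each preparation, so levels across them are compared in the joint fit. The members, and 16 other lists, were chosen with earlier results of these data known. Named genes are the 10 members, the called genes of smallest adjusted p in each list (up to 2 per comparison), and the 3 nearest genes to 3 members among those whose mean log2 CPM reached 4, predicted genes passed over. DESeq2 1.42.0, other scaling, no filter, the second tables, run terms and left-out libraries were alternatives. Scripts were tested on simulated data. Replicates are separate mice. Motifs were counted in RefSeq windows (GRCm38.p6).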

Additional observations from a re-analysis of the deposited data

Results flagged for a closer look

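Single mice stood apart from their dose group in 13 of 152 gene and group combinations by Dixon's ratio (8.55%). About 1 in 20 would be flagged by chance if the values were independent and normal. The combinations share mice across genes and preparations, and the DCA FFPE values include many zeros. No excess over chance can be read from this share. In DEHP frozen tissue, mouse 72B was lowest at 1500 ppm for Hspa1b (5.69 CPM) and Hsp90aa1 (314), and 71A lowest at 3000 ppm for Hspa9 (531). In DEHP FFPE tissue, 72B was lowest at 1500 ppm for Hspa8 (675) and 67C highest at 3000 ppm for Hspe1 (111). Among DCA frozen controls, mouse 4 was highest for Hspd1 (473), mouse 8 lowest for Hspa1a (0.149) and mouse 7 lowest for Hsph1 (105). In the shallow DCA FFPE tissue, 4 libraries that stood apart held no count: mouse 74 for Hspd1 (0), 52 for Hspa9 (0), 76 for Hsp90aa1 (0) and 3 for Dnajb1 (0), and mouse 73 was highest for Dnajb1 (29.1).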

How the results depend on the processing

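No member reversed under any alternative in a comparison where it was called. Run as a term gave 0 members at 1500 ppm in DEHP frozen and in DEHP FFPE tissue, 2 at 3000 ppm and 0 by trend in frozen tissue. DESeq2 gave 2 at 1500 ppm and 2 by trend in DEHP frozen tissue, 5 by trend in DEHP FFPE tissue and 5 at 1 g/L in DCA frozen tissue. The second count tables gave 0 at 1500 ppm in DEHP frozen tissue. Without the replicate block, 3 members in place of 7 differed between preparations in DEHP controls; it changed no other count by over 1.5 times. Leaving out 1 library gave 0 to 2, 3 to 6 and 2 to 3 members in DEHP frozen tissue at the rising doses and 0 to 3 by trend, 1 to 2, 4 to 6 and 3 to 5 in DEHP FFPE tissue and 0 to 4 by trend, 3 to 5, 6 to 7 and 6 to 7 in DCA frozen tissue and 4 to 6 by trend, and 0 to 3 between chemicals. Leaving out 1 mouse gave 6 to 7 and 5 to 7 between preparations in DEHP and DCA controls, and 0 in the interaction. Leaving out mice in the preparation and chemical comparisons, and libraries 53, 54, 73, 74 and 75, was chosen after seeing the data. Depth limits DCA FFPE tissue, where no alternative gave a call, and the low counts of Hspa1a.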
